A study of Mus musculus with 8 samples.

Results

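The 4 genes of the adrenomedullin system followed here are Adm, Calcrl, Ramp2 and Ramp3, measured in cardiac endothelial cells (EC). They were chosen by name, as 4 of the 16791 genes in the table of counts, and all 4 were present. The cells came from adult Pdgfb-iCreERT2-R26R-Brainbow2.1 mice, with 4 healthy mice (227, 228, 239 and 240) and 4 mice with myocardial infarction (MI; 244, 250, 255 and 256). The methods of the study give both sexes, an age of 8 to 10 weeks and heterozygous transgenes for its animals as a whole, and not for these 8 mice singly. All mice, controls included, received 150 mg/kg tamoxifen and were culled 21 days later. In the MI mice the left anterior descending coronary artery was tied for good at day 14, so that the hearts were taken at 7 days post-MI. The healthy mice had no sham operation in the sources used here. Tamoxifen turns on a Confetti fluorophore in cells in which the Pdgfb promoter drives the Cre, so other EC of the ventricles are missing, and the sort for CD31+, Confetti+ and podoplanin- cells also removes most lymphatic EC.

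Adrenomedullin is a small secreted peptide, made from the Adm precursor, that relaxes vessels and tightens the endothelial barrier. Its transcription is known to rise in hypoxia. Calcrl, the calcitonin receptor-like receptor, is a G protein-coupled receptor that reaches the cell surface with a receptor activity-modifying protein, which also sets its ligand. Ramp2 and Ramp3 make it a receptor for adrenomedullin, whereas Ramp1 makes it a receptor for calcitonin gene-related peptide. The receptor mainly signals through Gs and cAMP, and mice that lack Adm, Calcrl or Ramp2 die before birth with vascular and lymphatic defects.

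In the 8 libraries, values were numbers of unique molecular identifiers (UMIs), each of which stands for 1 captured transcript. They were summed over the EC of each mouse and given as CPM, the UMIs of a gene scaled to the same fixed total in every mouse. The deposited cells held 6764977 to 8793655 UMIs per healthy mouse and 15865234 to 27244947 per MI mouse, so values of healthy mice rest on fewer UMIs. Some healthy cells were present in more than one mouse. Healthy 228 shared 2041 barcodes with Healthy 239, and 2030 of these pairs were copies of the same cell, as were 301 of 316 pairs between Healthy 227 and 228 and 2 of 20 between Healthy 239 and 240. The other pairs of mice shared 10 to 40 barcodes and had 0 copies. Copies were left out of Healthy 228, 227 and 239, respectively, which removed 2030 of the 3669 cells of Healthy 228 (55.3%). Which of 2 libraries a copied cell belongs to is not known, and results with copies kept stand beside those that change. After cells of other types were removed by their markers, 10739 healthy and 16090 MI EC were left, with a median of 2108 and 4142 UMIs. The 10 endothelial markers summed to 23964 to 28299 CPM in healthy and 19138 to 22677 CPM in MI mice. The sum of 14 haematopoietic markers was 49.9 to 158 CPM in healthy and 303 to 580 CPM in MI mice, with all 14 detected. The part of these cells and of the depth in the results below was not tested.

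The genes lie on 3 chromosomes of GRCm38 in the GENCODE vM21 annotation. Adm (ENSMUSG00000030790) spans chr7:110627661-110629820 on the plus strand, Calcrl (ENSMUSG00000059588) spans chr2:84330626-84425411 on the minus strand, Ramp2 (ENSMUSG00000001240) spans chr11:101246028-101259546 and Ramp3 (ENSMUSG00000041046) spans chr11:6658521-6677475, both on the plus strand. Ramp2 and Ramp3 share a chromosome but are not neighbours. RefSeq upstream sequence of the GRCm38.p6 assembly matched 3 of the 4 genes, all but Ramp2. The 250 bases before each start site are shown because Adm is known for its response to hypoxia, with those of the receptor genes beside them. Capitals mark the core of the hypoxia response element, searched as ACGTG or GCGTG on both strands, and positions are counted back from the RefSeq start site. This site differs from the GENCODE one: the Adm window ends before the GENCODE span given above, whereas the end of the Ramp3 window and a longer part of the Calcrl window, its GC box included, lie inside those spans.
Adm, chr7:110627407-110627656, plus strand: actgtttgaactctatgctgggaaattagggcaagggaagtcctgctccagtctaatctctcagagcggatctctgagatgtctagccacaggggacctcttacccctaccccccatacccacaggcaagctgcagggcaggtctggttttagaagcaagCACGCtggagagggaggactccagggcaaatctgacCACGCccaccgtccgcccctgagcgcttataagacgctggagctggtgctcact
Calcrl, chr2:84425267-84425516, minus strand: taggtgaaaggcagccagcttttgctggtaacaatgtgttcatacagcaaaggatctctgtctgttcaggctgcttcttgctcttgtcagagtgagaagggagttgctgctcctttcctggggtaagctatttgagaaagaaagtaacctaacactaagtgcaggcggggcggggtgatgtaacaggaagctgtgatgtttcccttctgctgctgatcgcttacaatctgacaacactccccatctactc
Ramp3, chr11:6658283-6658532, plus strand: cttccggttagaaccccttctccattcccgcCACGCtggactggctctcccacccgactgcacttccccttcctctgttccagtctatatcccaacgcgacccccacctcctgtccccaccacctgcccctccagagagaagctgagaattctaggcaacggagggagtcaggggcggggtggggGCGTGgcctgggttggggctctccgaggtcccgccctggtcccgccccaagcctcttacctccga
The Adm window held 2 such matches, at bases -90 to -86 and -54 to -50, the Ramp3 window 2, at -219 to -215 and -65 to -61, and the Calcrl window 0. Of 32851 RefSeq windows of the same length, 38.6% held at least 1 match. A TATA box, searched as TATAAA or TATAAG on both strands, was found in the Adm window only, as 2 overlapping matches between bases -29 and -22, against 17.0% of all windows. A GC box, searched as GGGCGG on both strands, was present once in the Adm and Calcrl windows and 3 times in the Ramp3 window, against 32.7% of all windows.

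The first question was whether the ligand and its receptor genes differed between healthy and MI hearts. Over all EC, 3 of the 4 genes did not pass the test and Ramp3 was lower post-MI by a small and unstable margin. Counts were tested in edgeR by quasi-likelihood, and p adjusted after Benjamini and Hochberg over 12313 genes, of which 37.3% passed at 0.05 (18.6% higher and 18.7% lower post-MI). In such sums, fewer cells that express a gene and less RNA per cell cannot be told apart.

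Adm, the ligand, was measured at 53.7, 80.3, 102 and 131 CPM in Healthy 227, 228, 239 and 240, and at 101, 107, 83.8 and 95.0 CPM in MI 244, 250, 255 and 256. The healthy mice spread over a wider range than the MI mice, and the MI values all lay inside it. The group means were 91.5 ± 32.6 and 96.8 ± 10.0 CPM (SD, n = 4), and the log2 fold change was -0.01 ± 0.22 (standard error, SE; edgeR adjusted p = 0.975). Its sign turned under 8 alternatives, with values up to 0.18, and ran from -0.20 to 0.21 when single mice were left out. Healthy 227, lowest in Adm, also had the lowest summed level of 12 genes that respond to tissue dissociation, at 5863 CPM against 8750 to 9584 CPM in the other healthy and 6282 to 8707 CPM in the MI mice. Not all mice followed this order. Healthy 228 had the highest sum, 9584 CPM, with Adm at 80.3 CPM, and MI 244 had 6282 CPM with Adm at 101 CPM. The part of dissociation in the Adm level was not tested.

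Calcrl, the receptor, was at 109, 100.3, 66.5 and 64.9 CPM in the healthy mice and at 90.8, 91.4, 121 and 107 CPM in the MI mice, in the same order of mice. Healthy 239 and 240 were lower than every other mouse, and the groups overlapped. The log2 fold change was 0.18 ± 0.18 (edgeR adjusted p = 0.454).

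Ramp2, the accessory protein of the main adrenomedullin receptor, was at 858, 789, 817 and 779 CPM in healthy and 746, 853, 803 and 870 CPM in MI mice. It was the steadiest of the 4 genes, with an SD of 35.6 CPM in healthy and 55.9 CPM in MI mice around means of 811 and 818 CPM. The log2 fold change was -0.07 ± 0.08 (edgeR adjusted p = 0.480), and turned to 0.01 when only library size was used for scaling.

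Ramp3, the other accessory protein, was at 135, 118, 115 and 115 CPM in healthy and at 96.6, 124, 87.1 and 99.3 CPM in MI mice. Of the MI mice, 244, 255 and 256 were below every healthy mouse, while MI 250 was above all but Healthy 227. The log2 fold change was -0.33 ± 0.11 (edgeR adjusted p = 0.0422; 0.0430 with copied cells kept). The call ended under 7 of 13 alternatives, among them library size only (-0.25, adjusted p = 0.113) and cells thinned to 1000 UMIs (-0.22, adjusted p = 0.281). It ended also in 7 of the 8 fits that left out 1 mouse, with adjusted p up to 0.109, and remained without MI 250 (-0.44, adjusted p = 0.0118). On CPM alone, a two-sided exact permutation test gave p = 0.114.

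**Figure D1:**
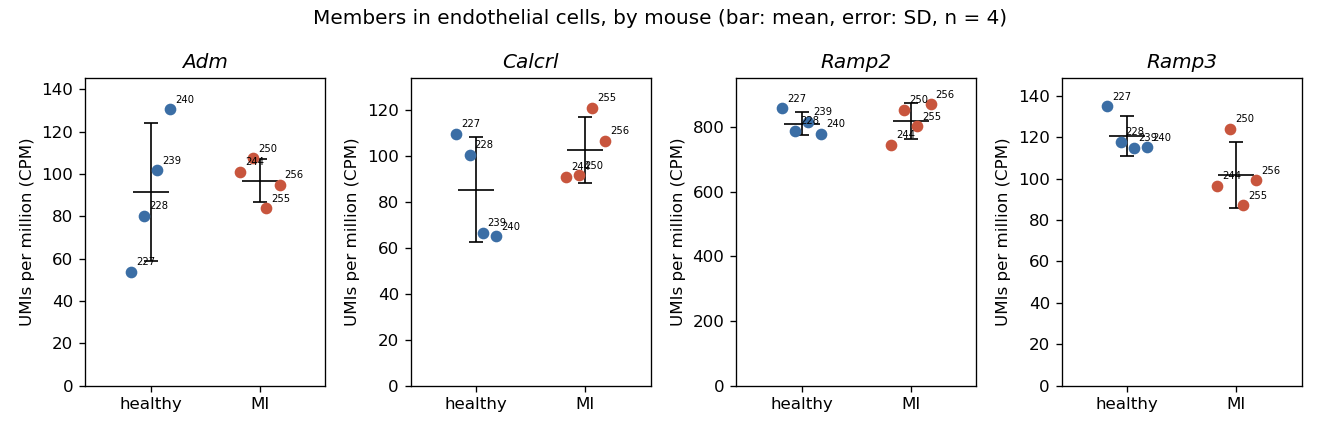
CPM (y axis) of Adm, Calcrl, Ramp2 and Ramp3 in the EC of each healthy and MI mouse, with the number of the mouse at each point, the group mean as a bar and the SD as the error. The groups overlap for all 4 genes; for Ramp3, 3 of 4 MI mice lie below the healthy mice.

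The share of cells with at least 1 UMI of a gene was compared next. Each EC with at least 1000 UMIs was thinned to 1000 UMIs, which left out 584 of the healthy and 0 of the MI cells, and the mean shares of the groups were set against each other by exact permutation of the 8 mice (two-sided), where p cannot go below 0.0286. Adm was detected in 6.35 ± 1.99% of healthy and 7.74 ± 0.838% of MI cells (SD, n = 4; exact p = 0.286). Calcrl was detected in 7.27 ± 1.02% and 8.93 ± 1.48% (exact p = 0.143), Ramp2 in 52.9 ± 1.31% and 53.4 ± 2.57% (exact p = 0.743), and Ramp3 in 11.2 ± 0.792% and 10.3 ± 2.26% (exact p = 0.514). Without thinning, the shares were 10.2 to 14.8 percentage points higher in MI mice for each gene, at the deeper median of 4142 against 2108 UMIs (exact p = 0.0286, the smallest possible). For the background of free RNA, the 1249 haematopoietic cells with at least 1000 UMIs, at a median of 6827 UMIs, gave 1.92% for Adm, 2.56% for Calcrl, 13.5% for Ramp2 and 1.6% for Ramp3 after the same thinning. Each EC share was above it. Whether the haematopoietic cells express these genes themselves was not tested. Of the UMIs of Ramp2 and Ramp3 together, Ramp3 took 13.0 ± 0.515% in healthy and 11.1 ± 1.31% in MI mice (exact p = 0.0571).

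The remaining ligands and receptors of the family were few. Of the ligands, Adm was the only one tested, since Calca did not pass the filter on low counts. Ramp1 was at 0.281 ± 0.347 CPM in healthy and 0.719 ± 0.230 CPM in MI mice and did not pass it either. The atypical receptor Ackr3, which binds adrenomedullin as well as CXCL12 and clears its ligands, was at 19.5 to 41.6 CPM in healthy mice and 88.2 to 130 CPM in MI mice. All MI mice were above all healthy mice, as in 23.2% of all genes tested, and the log2 fold change was 1.68 ± 0.23 (edgeR adjusted p = 0.000800). Gpr182, an endothelial receptor once assigned to adrenomedullin and related to Ackr3, was at 20.03 to 22.1 CPM in healthy and 33.6 to 51.0 CPM in MI mice. It also did not overlap between the groups, and its log2 fold change was 0.84 ± 0.13 (edgeR adjusted p = 0.00127).

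Of 6 tested genes of the list of peptide processing and clearance, 2 were higher and 0 lower post-MI, with a median log2 fold change of 0.46 against -0.02 over all genes. Cpe, carboxypeptidase E, rose by 1.24 ± 0.21 on the log2 scale, from 41.0 to 103 CPM, and Pcsk6, a proprotein convertase, rose by 1.12 ± 0.34 from a mean of 1.86 CPM. Pam, which amidates the end of the peptide, gave 0.03 ± 0.21 (edgeR adjusted p = 0.914).

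Of 22 tested genes of cAMP signalling, 4 were higher, 6 lower and 12 did not pass, with a median of -0.09. The genes higher post-MI were 3 phosphodiesterases that break down cAMP, Pde4d (1.46 ± 0.22), Pde3b (0.81 ± 0.24) and Pde4b (0.50 ± 0.16), and Crcp, the receptor component protein of Calcrl (0.34 ± 0.11). Of the genes called lower, the largest falls were in Akap12, an anchor of protein kinase A (-1.04 ± 0.12), in Rapgef4 (-1.02 ± 0.16) and Rapgef3 (-0.66 ± 0.12), which are the cAMP sensors Epac2 and Epac1, and in the adenylyl cyclase Adcy6 (-0.50 ± 0.13). Gnas, which encodes the Gs alpha subunit, was not called (0.15 ± 0.07, edgeR adjusted p = 0.124), nor was Nos3 (-0.08 ± 0.11). Of 9 tested genes of receptor desensitisation, 2 were higher, the beta-arrestin Arrb1 (1.28 ± 0.16) and the receptor kinase Grk5 (0.33 ± 0.11), and 1 was lower, the receptor kinase Adrbk1 (-0.37 ± 0.12), with a median of 0.12.

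Of 13 tested genes of the hypoxia list, genes that like Adm are known to respond to low oxygen, 4 were higher, 1 lower and 8 did not pass, with a median of 0.22. Egln3 (1.94 ± 0.27), the glucose transporter Slc2a1 (0.94 ± 0.24), Eno1 (0.58 ± 0.11) and Pdk1 (0.47 ± 0.15) rose, and Ndrg1 fell by 0.42 on the log2 scale. Vegfa (0.60 ± 0.22, edgeR adjusted p = 0.0557) and Ldha (0.40 ± 0.17, edgeR adjusted p = 0.0839) were not called. Of 12 dissociation genes, 1 was higher, Atf3 (0.73 ± 0.26), and 1 lower, Hspa1b (-1.45 ± 0.48), with a median of -0.22. The shares called were 33.3 to 45.5% in the processing, cAMP, desensitisation and hypoxia lists, 60.0% of the 5 tested receptor genes and 16.7% of the dissociation genes, against 37.3% of all genes.

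**Figure D2:**
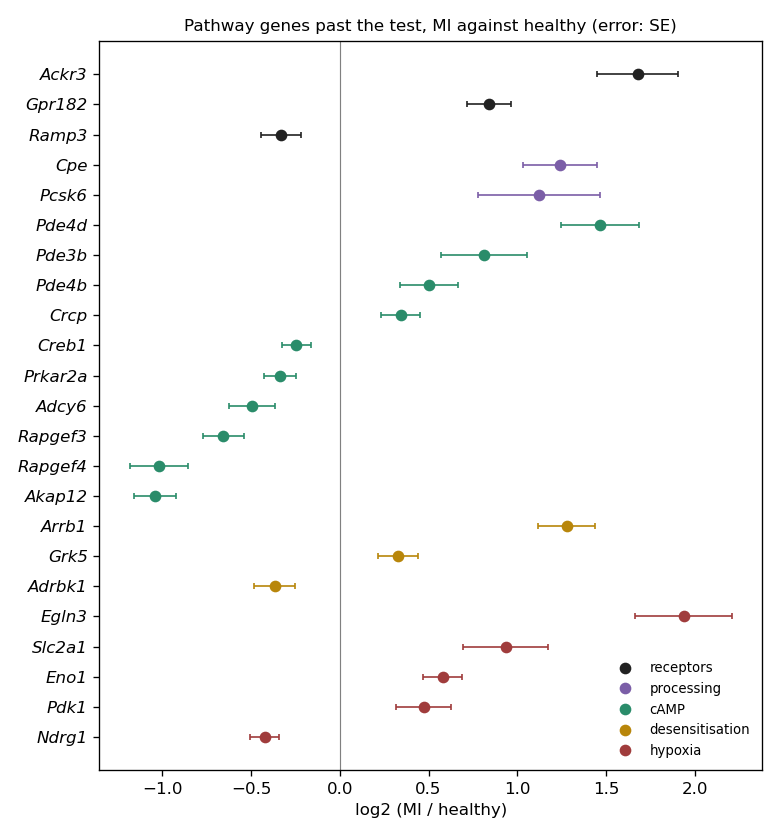
Log2 fold change post-MI against healthy (x axis, SE as error) of the genes of 5 pathway lists that passed edgeR's test, coloured by list. Ackr3, Gpr182, Cpe, Pde4d, Arrb1 and Egln3 lie to the right, while Akap12, Rapgef4 and Rapgef3 are the farthest to the left.

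The next question was where in the vasculature the genes were expressed. Cells thinned to 1000 UMIs were put into 5 classes when they held the marker of exactly 1 class: capillary Car4, sprouting Apln (the apelin ligand), arterial Gja4 (connexin 37) and venous Nr2f2 (a transcription factor of venous identity) at 1 UMI or more, and Plvap (a protein of endothelial diaphragms) at 3 UMIs or more. These held 3677, 1469, 1749, 761 and 496 cells, respectively, 17478 cells had no marker and 615 had several. The Plvap-high class held 3 healthy cells in all, so it was described in MI mice only. In the first 4 classes, 69.5 to 89.9% of cells rested on a single UMI of the marker, and in the Plvap-high class 41.3% were at the minimum. The same markers were then counted in haematopoietic cells, 125 healthy and 1124 MI cells at a median of 5376 and 7005 UMIs, against 2184 and 4142 UMIs in EC. Car4 was found in 22.9% of healthy and 10.2% of MI EC against 4.80% and 0.712% of haematopoietic cells, and Apln in 3.34% and 8.94% against 0.800% and 1.96%. Gja4 was found in 6.23% and 8.18% of EC against 4.80% and 3.20%, and Nr2f2 in 1.95% and 5.10% against 0.800% and 1.25%. Plvap at 3 UMIs was found in 0.0394% and 4.19% of EC against 0% and 2.05%. Gja4 in healthy and Plvap in MI mice were thus nearest to this background, and the part of free RNA in these classes was not tested.

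The class labels were checked with genes that were picked after the values were known. Against the mean of the other classes, the Gja4 class was higher in Gja5 (log2 difference 5.58) and Hey1 (3.35), the Apln class in Kit (2.59) and Esm1 (1.71), the Nr2f2 class in Vwf (2.66), Vcam1 (1.97) and Ephb4 (0.67), and the Car4 class in Rgcc (1.36) and Cd36 (0.86). Some of these genes were not particular to a class. Esm1 was also higher in the Gja4 (1.20, edgeR adjusted p = 0.00321) and Plvap-high classes (0.83, adjusted p = 0.0143), and Vwf (1.85) and Vcam1 (0.49, adjusted p = 0.0328) were also higher in the Plvap-high class. No gene was picked to check the Plvap-high class, which is named by its marker alone. The Nr2f2 and Gja4 classes were also higher in Rgs5 (1.39 and 1.56), a gene of pericytes, and its part in their values was not tested. In MI mice a smaller share of the sorted EC fell in the Car4 class than in healthy mice, 8.92 ± 4.70% against 22.1 ± 1.66% (SD, n = 4). A larger share fell in the Apln class, 7.38 ± 1.77% against 2.59 ± 0.81%. Neither share overlapped between groups (exact permutation p = 0.0286, the smallest possible). The same held for Nr2f2 cells, at 3.81 ± 1.74% against 1.62 ± 0.22%, and for Plvap-high cells, at 3.11 ± 2.66% against 0.0263 ± 0.0310%. The shares of Gja4 cells overlapped, at 7.36 ± 1.25% in MI and 5.56 ± 2.30% in healthy mice (exact permutation p = 0.257). Car4 itself was at 927 CPM in healthy and 619 CPM in MI cells of its class. In these shares, a change in the number of cells and in marker RNA per cell cannot be told apart.

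Each class was compared with the mean of the others in 1 fit over sums per mouse and class, with the mouse as a block. Of 9687 genes tested, 21.9% passed in the Car4, 23.7% in the Apln, 25.7% in the Gja4, 9.80% in the Nr2f2 and 25.2% in the Plvap-high class. Of the members, 3, 3, 3, 2 and 4 passed in these classes, respectively.

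Adm was highest in the Apln class and lowest in the Gja4 class. In Apln cells it was at 287, 258, 490 and 416 CPM in Healthy 227, 228, 239 and 240, and at 219, 217, 184 and 286 CPM in MI 244, 250, 255 and 256. In Gja4 cells it was at 9.69, 10.5, 15.9 and 5.85 CPM in healthy and 18.2, 34.6, 21.3 and 32.5 CPM in MI mice, so the lowest Apln value of any mouse was above the highest Gja4 value. Car4 cells held 43.6 to 102 CPM in healthy and 54.1 to 123 CPM in MI mice, Nr2f2 cells 6.52 to 96.2 and 33.0 to 49.0 CPM, and Plvap-high cells 20.7 to 35.9 CPM in MI mice. Against the mean of the other classes, the log2 difference was 2.94 ± 0.11 in Apln cells (edgeR adjusted p = 2.44e-27), 0.65 ± 0.12 in Car4 cells, -1.30 ± 0.19 in Plvap-high cells and -2.40 ± 0.20 in Gja4 cells (adjusted p = 4.46e-05, 3.94e-07 and 1.39e-14). In Nr2f2 cells it was -0.55 ± 0.21 (adjusted p = 0.0890), and it passed under 5 alternatives, copied cells kept among them (-0.67, adjusted p = 0.0190). In healthy haematopoietic cells Adm was at 14.9 CPM, from 12 UMIs, and in 2.40% of thinned cells. These were 126 pooled cells, 72 of them from Healthy 239, and how much of their level is free RNA was not tested. The healthy Gja4 cells, with 1.19% of thinned cells, were not above this background and are not read as expressing Adm. The healthy Nr2f2 cells, with 4 of 161 thinned cells (2.48%), were not clearly above it by this share either. Their mean of 49.6 CPM was above the 14.9 CPM, but rests on 1 to 12 Adm UMIs per mouse. In MI mice, 2.15% of Gja4 cells held an Adm UMI, near the 1.87% of haematopoietic cells. The mean of these Gja4 cells, 26.6 CPM, was above the 14.1 CPM of the haematopoietic cells. The Car4 difference was not called in the healthy mice alone (0.42, adjusted p = 0.127), nor were the Car4 and Plvap-high differences with 2 or more UMIs of the marker (0.63 and -0.76, adjusted p = 0.171 and 0.234).

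In the 4 MI mice, where all classes could be compared, the order of Adm levels from high to low was Apln, Car4, Nr2f2, Plvap-high and Gja4. Car4 against Apln cells gave -1.32 ± 0.13 and Car4 against Nr2f2 cells 1.10 ± 0.19 on the log2 scale (edgeR adjusted p = 2.39e-11 and 9.97e-06, in comparisons that called 16.0% and 17.0% of genes). Nr2f2 against Plvap-high cells (0.59 ± 0.25, adjusted p = 0.115) and Gja4 against Plvap-high cells (-0.11 ± 0.26, adjusted p = 0.822) were not called, where 16.0% and 24.2% of genes were. Although Apln cells were 7.38 ± 1.77% of EC in MI mice, they held 19.2 ± 4.12% of the Adm UMIs, and in healthy mice 2.59 ± 0.81% of EC held 14.9 ± 4.11%. Cells without a marker held 63.8 ± 3.33% of Adm UMIs in healthy and 66.1 ± 3.91% in MI mice.

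Calcrl, in contrast, was highest in the Nr2f2 class. It was at 202, 397, 207 and 152 CPM in the Nr2f2 cells of the healthy mice, each with 26 to 51 such cells, and at 223.5, 232, 257 and 244 CPM in those of the MI mice. Plvap-high cells followed with 120, 204, 143 and 174 CPM, whereas Gja4 cells held 29.2 to 45.4 CPM in healthy and 45.8 to 64.5 CPM in MI mice. These Gja4 levels lie close to the background: Calcrl was found in 3.24% of thinned healthy and 3.87% of thinned MI Gja4 cells, against 3.20% and 2.49% of haematopoietic cells, which were at 19.9 and 37.2 CPM where the Gja4 means were 38.6 and 52.1 CPM. Thus Nr2f2 cells were above Gja4 cells in 8 of 8 mice. The log2 difference from the other classes was 1.68 ± 0.12 in Nr2f2, 0.74 ± 0.11 in Plvap-high, -0.42 ± 0.10 in Car4 and -1.40 ± 0.12 in Gja4 cells (edgeR adjusted p = 1.48e-15, 1.73e-07, 0.000649 and 1.17e-13). It was -0.23 ± 0.12 in Apln cells (adjusted p = 0.188). There it was called when classes were set in unthinned cells (-0.29, adjusted p = 0.00628). With 2 or more UMIs of the marker it turned to 0.145 in these cells (adjusted p = 0.767). The Plvap-high difference fell to 0.20 (adjusted p = 0.470) when that class was set at 5 UMIs, and the Car4 difference to -0.17 (adjusted p = 0.498) in healthy mice alone and -0.28 (adjusted p = 0.455) with 2 or more UMIs of the marker. In MI mice the order was Nr2f2, Plvap-high, Apln, Car4 and Gja4. All neighbours differed but Car4 and Gja4 (0.41 ± 0.15, adjusted p = 0.0516). Nr2f2 against Plvap-high gave 0.59 ± 0.12 (adjusted p = 0.000253), Apln against Plvap-high -0.78 ± 0.13 (adjusted p = 2.42e-06) and Car4 against Apln -0.39 ± 0.13 (adjusted p = 0.0348), where the Apln against Plvap-high and Car4 against Gja4 comparisons called 25.0% and 17.3% of genes.

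Ramp3 was highest in Nr2f2 and Car4 cells. In Car4 cells it was at 161, 132, 133 and 119 CPM in healthy and 128, 163, 142 and 119 CPM in MI mice, with like ranges in both groups. In Nr2f2 cells the healthy mice were widely spread, at 124, 59.1, 234 and 200.4 CPM, from 7 to 34 UMIs each, and the MI mice were at 157, 178, 114 and 127 CPM. Plvap-high cells held 43.2, 84.3, 45.9 and 48.6 CPM, below the Car4 and Nr2f2 cells of the same mice. The log2 difference from the other classes was 0.82 ± 0.13 in Nr2f2, 0.72 ± 0.08 in Car4, -0.45 ± 0.12 in Apln, -0.64 ± 0.11 in Gja4 and -0.89 ± 0.14 in Plvap-high cells (edgeR adjusted p = 3.63e-06, 1.69e-09, 0.00470, 7.01e-06 and 6.99e-07). The Apln difference was not called in MI mice alone (-0.08, adjusted p = 0.553) or without Healthy 239 (-0.33, adjusted p = 0.0911). Nor was it called with Plvap-high at 5 UMIs (-0.31, adjusted p = 0.0728). The Plvap-high difference was not called when classes were set in unthinned cells (-0.25, adjusted p = 0.118). With 2 or more UMIs of the marker, the Apln and Plvap-high differences were -0.44 and -0.53, and neither was called (adjusted p = 0.375 and 0.0852). The Nr2f2 difference was then 0.37, but that class rests on 1 mouse with 20 cells or more. In MI mice, Car4 against Nr2f2 cells (-0.03 ± 0.13, adjusted p = 0.943) and Gja4 against Plvap-high cells (0.21 ± 0.17, adjusted p = 0.414) were not called, and Apln cells lay between these pairs.

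Ramp2 varied little between classes. It was at 1005, 1074, 974 and 1216 CPM in the Plvap-high cells of MI 244, 250, 255 and 256, and at 633 to 993 CPM in the other classes of all mice. The log2 difference from the other classes was 0.37 ± 0.05 in Plvap-high and -0.21 ± 0.04 in Apln cells (edgeR adjusted p = 6.36e-08 and 0.000222), and it lay between -0.04 and 0.07 in the others, which were not called. The Apln difference was not called in the healthy mice alone (-0.11, adjusted p = 0.385). The Car4 difference was called when classes were set in unthinned cells (0.10, adjusted p = 0.0311). In MI mice alone it turned to -0.09 and was not called (adjusted p = 0.124). Hence, in MI mice, Calcrl and Ramp2 were both higher in the Plvap-high class than the mean of the other classes, while Ramp3 and Adm were lower there. Calcrl was higher still in Nr2f2 cells. Against Plvap-high cells, Adm was not called in Nr2f2 or Gja4 cells, nor was Ramp3 in Gja4 cells. The Plvap-high cells had a median of 6870 UMIs against 4142 in all MI EC, and the part of this depth was not tested.

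**Figure D3:**
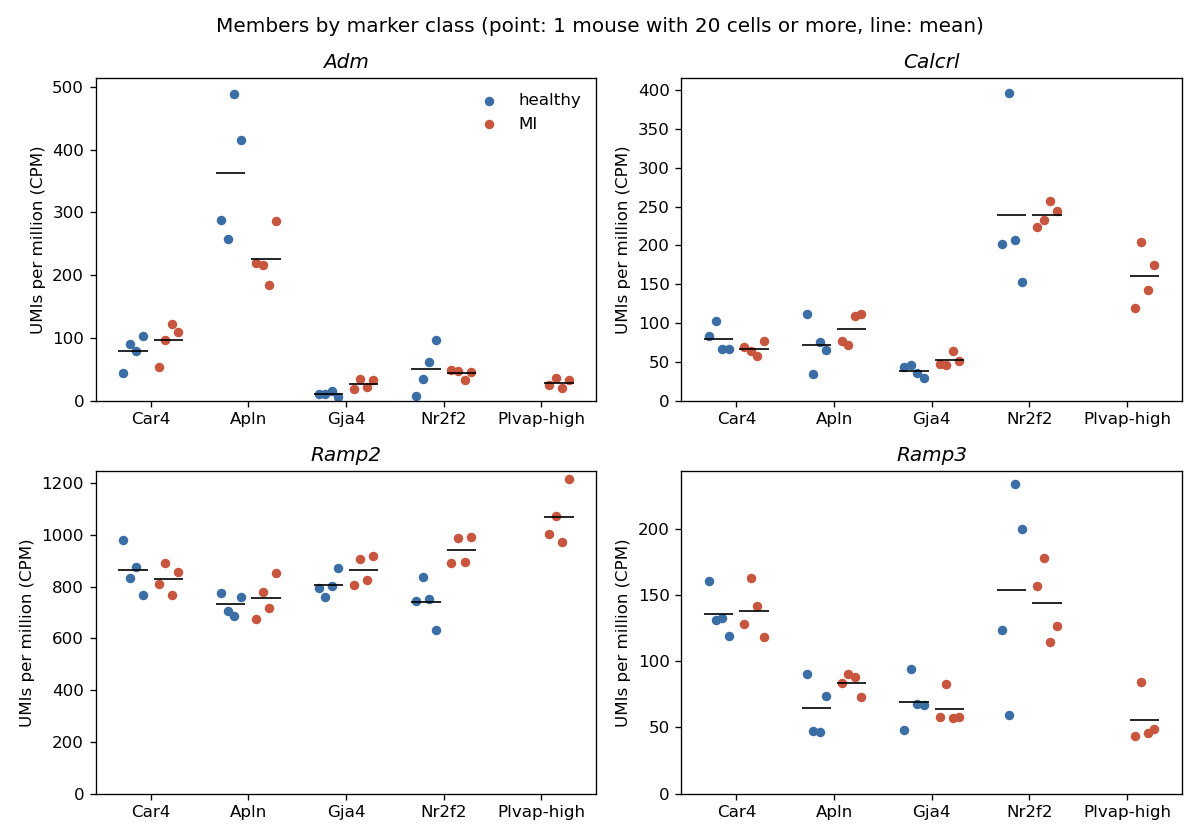
CPM (y axis) of each gene in the 5 marker classes (x axis), where a point is 1 mouse with at least 20 cells of the class and a line is the mean. Adm stands highest in Apln cells, Calcrl in Nr2f2 cells, and Ramp2 is nearly level over the classes.

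**Figure D4:**
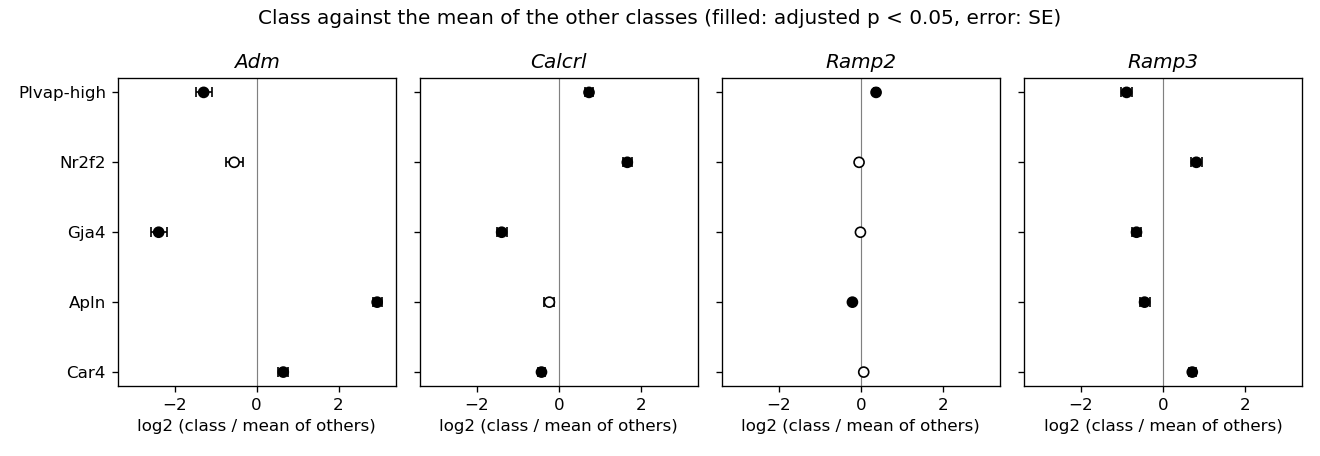
Log2 difference of each class from the mean of the other classes (x axis, SE as error) for the 4 genes, with filled points for adjusted p below 0.05. Adm runs from -2.40 in Gja4 to 2.94 in Apln cells, whereas Ramp2 stays between -0.21 and 0.37.

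The last comparison asked whether MI changed the genes within a class. Adm was lower post-MI in Apln cells, with a log2 fold change of -0.80 ± 0.19 (edgeR adjusted p = 0.0229, where 2.67% of 7043 genes were lower), although the groups overlapped, since MI 256 at 286 CPM exceeded Healthy 228 at 258 CPM. The values rest on 38 to 148 Adm UMIs per healthy mouse. In Gja4 cells, all MI mice were above all healthy mice, as for 11.9% of the genes tested there, with means of 10.5 and 26.6 CPM. The healthy values rest on 2 to 11 UMIs per mouse and their mean does not exceed the background of haematopoietic cells, and the log2 fold change of 1.10 ± 0.38 was not called (adjusted p = 0.0637, where 14.0% of genes passed). It was called with class calls in unthinned cells (1.12, adjusted p = 0.0289), with Plvap-high at 5 UMIs (1.16, adjusted p = 0.0419) and without MI 244 (1.27, adjusted p = 0.0313), and was 0.73 with copied cells kept (adjusted p = 0.183) and 0.49 with cells that held other class markers kept (adjusted p = 0.365). In Car4 and Nr2f2 cells, Adm gave 0.19 ± 0.26 and -0.29 ± 0.42 (adjusted p = 0.667 and 0.762). A test of the difference of the MI effect between the 4 classes passed for Adm (edgeR F test, adjusted p = 0.00206), as it did for 3.22% of 9687 genes. The MI effect in Apln cells minus that in Car4 cells was -0.88 ± 0.21 (adjusted p = 0.0150). The share of all genes that passed this single term is not given here.

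Both Adm results changed with the rule that set the classes, which alters all of them and not the Apln class alone. When classes were set in unthinned cells, the fold change in Apln cells was -0.31 (adjusted p = 0.439) and the difference between classes remained (adjusted p = 0.0358). With 2 or more UMIs of the marker, an alternative chosen after the data were seen, the fold change was -0.75 (adjusted p = 0.253) and the difference between classes, without the Nr2f2 class, was not called (adjusted p = 0.599). The call in Apln cells was also lost without Healthy 239 (-0.63, adjusted p = 0.109), Healthy 240 (-0.75, 0.0891), MI 244 (-0.78, 0.0596), MI 250 (-0.77, 0.0719) or MI 255 (-0.70, 0.0784), and the difference between classes without Healthy 239 (0.0727). Apln itself was at 903 CPM in healthy and 698 CPM in MI cells of the class, and the median depth was 2759 and 4888 UMIs; the part of these in the Adm result was not tested.

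The receptor gene Calcrl and its partners Ramp2 and Ramp3 passed in none of the 4 classes, of which the Car4, Gja4 and Nr2f2 classes called 15.7%, 14.0% and 7.14% of genes in either direction and the Apln class 4.39%. Their adjusted p ranged from 0.210 to 0.918, and tests of the difference between classes gave 0.451 for Calcrl, 0.0539 for Ramp2 and 0.719 for Ramp3. Calcrl in Nr2f2 cells was at 239.5 ± 108 CPM in healthy and 239 ± 14.5 CPM in MI mice, a log2 fold change of -0.10 ± 0.23. When classes were set in unthinned cells, however, it was lower post-MI there (-0.71, adjusted p = 0.0176), and its difference between classes passed (adjusted p = 0.00562). Ramp2 in Nr2f2 cells did not overlap, at 633 to 836 CPM in healthy and 890 to 993 CPM in MI mice, as for 9.92% of the genes tested there, with a log2 fold change of 0.24 ± 0.14 (adjusted p = 0.356). Its effect minus that in Car4 cells was 0.44 ± 0.11 (adjusted p = 0.0475). This single term was picked although the F test over the classes was not called (adjusted p = 0.0539). The share of all genes that passed it is not given here. In cells with no marker, Ramp3 was lower post-MI (-0.30 ± 0.10, adjusted p = 0.0385, where 17.1% of genes were lower), and this call was lost in 6 of the 8 fits without 1 mouse, kept only without Healthy 239 or MI 250. Ackr3 was higher post-MI in each of the 4 classes, by 1.18 ± 0.28 in Apln to 1.72 ± 0.28 in Gja4 cells. Its healthy values rest on 5 to 25 UMIs per mouse in Apln, 4 to 25 in Gja4, 4 to 9 in Nr2f2 and 21 to 59 in Car4 cells. Gpr182 passed in Nr2f2 cells (1.41 ± 0.27, adjusted p = 0.00552) of the 3 classes in which it was tested. That call rests on 4 Gpr182 UMIs in each healthy mouse, 16 in all, against 305 in the MI mice. Gpr182 was higher in Nr2f2 cells (log2 difference from the other classes 1.29 ± 0.24), Plvap-high cells (1.11 ± 0.12) and Car4 cells (0.42 ± 0.15, adjusted p = 0.0338) and lower in Gja4 cells (-2.43 ± 0.23). The Gja4 cells held 0 to 4 Gpr182 UMIs per healthy mouse, with means of 2.18 CPM in healthy and 12.9 CPM in MI mice. These were near the 2.48 and 12.0 CPM of the pooled haematopoietic cells, which rest on 2 and 106 UMIs. The difference in Gja4 cells thus involves a level near this background.

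**Figure D5:**
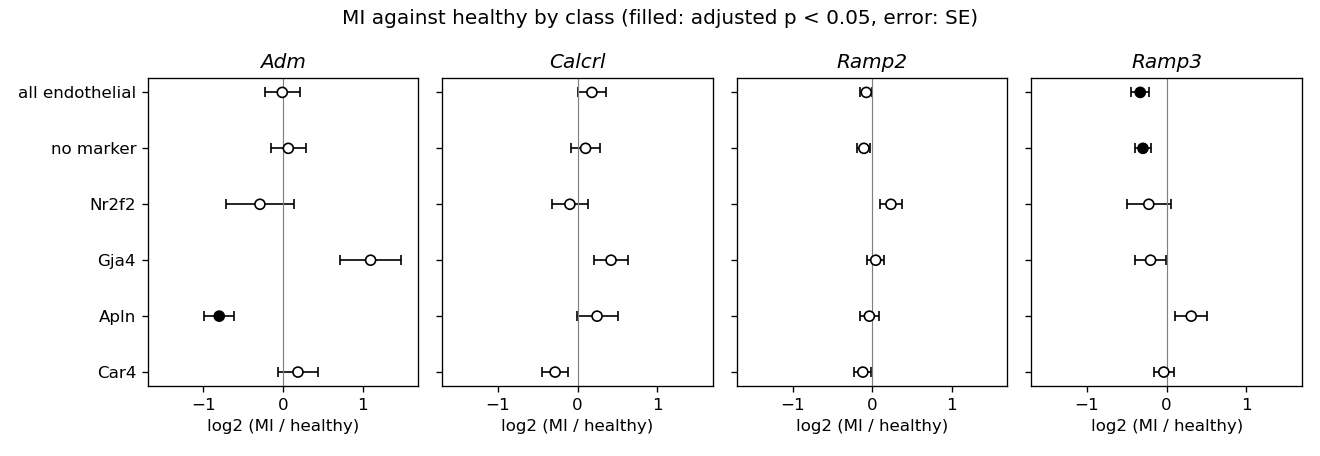
Log2 fold change post-MI against healthy (x axis, SE as error) of the 4 genes in each class, in cells with no marker and in all EC, with filled points for adjusted p below 0.05. Adm is lower in Apln cells, and Ramp3 in cells with no marker and in all EC.

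Ligand and receptor transcripts were then counted in the same cells. In cells thinned to 1000 UMIs, Calcrl together with Ramp2 or Ramp3 was found in 418 of 10155 healthy (4.12%) and 889 of 16090 MI cells (5.53%), where the product of the separate shares gives 4.06% and 5.10%. The share found was above the product in 3 of 4 healthy and 4 of 4 MI mice. Of 674 healthy cells with an Adm UMI, 27 (4.01%) also held the receptor pair, and of 1253 MI cells 34 (2.71%). Among Adm cells, Calcrl was detected in 7.27% in healthy mice, against 7.05% of all healthy cells, and in 4.47% in MI mice, against 8.84% of all MI cells. It was lower in Adm cells than in all cells in 4 of 4 MI mice and in 2 of 4 healthy mice. Both Ramp2 and Ramp3 were found in 6.38% of healthy and 6.18% of MI cells, where the product of their shares gives 5.86% and 5.61%, and the share found was above the product in 8 of 8 mice. These shares are limited by the few UMIs per cell, so cells that lack a UMI may still express the gene.

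Across the 36 sums of mouse and class, each taken relative to its mouse, the genes whose levels were most like Adm were Fscn1 (Pearson r = 0.944), Ift122 (0.942), Gnb4 (0.933), Lama4 and Mest (both 0.924), among 6234 genes. For Calcrl these were Lhx6 (0.963), Prpf40b (0.939), Ptgs1 (0.932), Fam174b (0.902) and Cysltr1 (0.894). For Ramp3 they were H2-T23 (0.841), Pltp (0.826), Fmo1 (0.816), Sdpr (0.808) and Ntf3 (0.802), and for Ramp2, which varied least, Spns2 (0.778), Sptlc2 (0.745), Ptpn1 (0.730), Ctla2a (0.717) and Wipi1 (0.715). The points share mice and libraries, so these values are a description.

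Outside the EC, the sorted cells also held small numbers of other types, whose values were pooled over the mice of a group and carry no replicate error. These were 126 healthy and 1124 MI haematopoietic cells, 172 and 161 pericytes or smooth muscle cells, 24 and 58 fibroblasts, 41 and 89 erythroid cells and 15 and 23 lymphatic cells. A further 32 healthy platelets and 1 MI platelet held few UMIs of the 4 genes and are not described. Ramp2 was at 810 CPM in healthy and 812 CPM in MI EC, against 137 and 219 CPM in haematopoietic cells, 222 and 337 CPM in pericytes, 265 and 312 CPM in fibroblasts and 373 and 320 CPM in erythroid cells. Lymphatic cells were at 984 CPM, from 45 UMIs, in healthy and 525 CPM, from 99 UMIs, in MI mice, so they were above the EC in healthy mice and below them in MI mice. Calcrl was at 82.4 and 102 CPM in EC and at 153 and 101 CPM, from 7 and 19 UMIs, in lymphatic cells. It was at 44.4 and 35.7 CPM in pericytes, at 68.5 and 41.3 CPM, from 8 and 20 UMIs, in fibroblasts, and at 14.9 and 19.7 CPM in erythroid cells. Ramp3 was at 120 and 102 CPM in EC and at 67.2 and 74.4 CPM in erythroid cells, and at 0 to 25.1 CPM in the other 4 types. The erythroid cells also carried the endothelial markers Pecam1 (370 and 434 CPM), Cdh5 (362 and 515 CPM) and Kdr (329 and 302 CPM), above the haematopoietic cells (at most 253 CPM for the 3 genes), and their part in the Ramp3 level was not tested. Adm was at 94.8 and 97.3 CPM in EC and at 85.6 and 118 CPM, from 10 and 57 UMIs, in fibroblasts. It was at 197 and 10.6 CPM, from 9 and 2 UMIs, in lymphatic cells, at 48.5 and 25.8 CPM in erythroid cells and at 10.1 and 24.2 CPM in pericytes. Ramp1 differed from the members, with 0.306 and 0.739 CPM in EC, 27.3 and 35.3 CPM in haematopoietic cells and 63.4 and 73.4 CPM in pericytes or smooth muscle cells.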

How the data were processed

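Single EC of 8 mice were captured with the 10X Chromium 3' assay, 1 library per mouse. The authors deposited 1 table of raw counts (UMIs per gene and cell, whole numbers, not normalized). The submitters' processing notes name Cell Ranger, mm10, R 3.5.2 and Seurat 2.3, and the authors removed cells with under 400 genes or over 20% mitochondrial UMIs. Their sorting gate left out doublets, and no doublet caller was run here.

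The 4 genes, the gene lists and the rules were chosen with earlier results of these data known. Where 2 mice held the same barcode and their cells matched, gene by gene, for 90% or more of the UMIs of the cell with fewer, the latter was left out as a copy. A cell was left out as another type when the summed UMIs of that type's markers exceeded those of the endothelial markers. A class needed 20 cells in a mouse to enter a fit, and its sums were taken at full depth.

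Sums were tested in edgeR 4.0.16 (R 4.3.3) with TMM, filterByExpr and the quasi-likelihood test, Benjamini-Hochberg adjusted at 0.05 over all genes tested. The SE is the absolute log2 fold change divided by the square root of F, and is approximate. The fits were also run on simulated counts drawn with the same dispersion for every gene, which these data need not have. The outcome is not reported here and no result rests on it. The text names the 4 genes, every tested ligand and receptor, up to 4 higher and 4 lower called genes of each other list, and the 5 genes most like each member by Pearson r of log2(CPM + 20); genes whose mean was under 20 CPM were not considered. Genes named as not called, and those that check the classes, were added after their values were seen. Alternatives were DESeq2 1.42.0, limma-voom (limma 3.58.1), other scalings and filters, the 4% of cells with the most UMIs left out, other cell and class rules, Xist as a covariate since the study used both sexes, and each mouse left out. The class rule at 2 UMIs, the stricter rule for other cell types and the cells with no marker were added after the data were seen. Sums were made with Python 3.11.15, numpy 2.4.6, scipy 1.17.1 and pandas 2.3.3. The values of pooled cells carry no replicate error. The values of 1 gene of the lists are not reported here.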

Additional observations from a re-analysis of the deposited data

Results flagged for a closer look

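Among 54 groups of 4 mice, 3 held a mouse far from the other 3, and chance alone marks about 1 in 20 such groups. All 3 were for Ramp3. Healthy 227 was the highest healthy mouse over all EC at 135 CPM, with a gap to the next mouse of 0.861 of the range. MI 250 was the highest MI mouse in Gja4 cells at 82.8 CPM (0.957 of the range) and in Plvap-high cells at 84.3 CPM (0.868 of the range).

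For Adm, the effect of MI differed between the 4 classes that both groups held, by edgeR's F test of the class by group terms (adjusted p = 0.00206). This test was lost with 2 or more UMIs of the marker (adjusted p = 0.599) and without Healthy 239 (adjusted p = 0.0727). Adm was lower post-MI in Apln cells. In Gja4 cells its log2 fold change of 1.10 was not called (adjusted p = 0.0637), and the healthy mean there was not above the background of haematopoietic cells.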

How the results depend on the processing

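No paired analysis was possible because the replicate numbers of the labels name single mice and are not shared between healthy and MI mice. Copied cells, the depth of 2108 against 4142 UMIs per cell, and classes that rest mostly on 1 UMI limit the values of the classes. Where a value changed, the cause was not tested.

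Over all EC, the log2 fold change of Adm turned to 0.167 without the 4% of cells with the most UMIs, 0.184 in thinned cells, 0.00558 with DESeq2, 0.0451 with limma-voom, 0.0768 with library size only, 0.00521 with the upper quartile, 0.00437 without the filter and 0.0394 with Xist, and ran from -0.201 to 0.21 when each mouse was left out. Ramp2 turned to 0.013 with library size only. Ramp3 was no longer called with all deposited cells (-0.368), without the cells with the most UMIs (-0.289), in thinned cells (-0.216), with library size only (-0.245), the upper quartile (-0.317), no filter (-0.316) or Xist (-0.33), and ran from -0.438 to -0.256 without each mouse. It remained called with DESeq2 (adjusted p = 0.0341) and limma-voom (adjusted p = 0.0394). Library size only moved the median of all genes from -0.02 to 0.07. Thinned cells gave 1338 higher and 1356 lower genes, against 2288 and 2305.

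Within classes, class calls in unthinned cells gave Adm -0.31 in Apln, 1.12 (called) in Gja4 and 0.369 in Nr2f2 cells, Calcrl -0.0459 in Apln and -0.712 (called) in Nr2f2 cells, and Ramp2 0.0146 in Apln and -0.0347 in Gja4 cells. Markers at 2 UMIs gave Adm -0.754 and Ramp2 0.0833 in Apln cells, and Ramp2 0.075 and Ramp3 0.0671 in Car4 cells. Plvap-high at 5 UMIs gave Adm 1.16 (called) in Gja4 cells, and cells with other markers kept gave Calcrl 0.0399 in Nr2f2 cells. Without each mouse, Adm ran from -0.949 to -0.626 in Apln, 0.908 to 1.56 in Gja4, -0.0256 to 0.394 in Car4, -0.696 to 0.235 in Nr2f2 (in the 4 fits that tested it) and -0.13 to 0.309 in unmarked cells. Calcrl ran from -0.244 to 0.263 in Nr2f2 and -0.0192 to 0.272 in unmarked cells, Ramp2 from -0.12 to 0.0222 in Apln cells, and Ramp3 from -0.138 to 0.0446 in Car4, -0.449 to 0.0774 in Nr2f2 and -0.375 to -0.23 in unmarked cells. The F test of the difference between classes gave adjusted p = 0.599 for Adm at 2 UMIs, 0.00562 for Calcrl in unthinned calls and 0.0373 for Ramp2 with other markers kept, and without each mouse 0.000113 to 0.0727 for Adm and 0.0398 to 0.181 for Ramp2. MI could not be tested in Plvap-high cells, nor in Nr2f2 cells at 2 UMIs, for lack of mice with 20 cells. Markers at 2 UMIs left 77 higher and 108 lower genes in Car4 (against 693 and 688), 20 and 19 in Apln (against 121 and 188) and 184 and 209 in Gja4 cells (against 531 and 611), and 32 genes for the difference between classes (against 312).

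Against the other classes, markers at 2 UMIs gave Adm 0.626 in Car4 and -0.756 in Plvap-high, Calcrl -0.28 in Car4 and 0.145 in Apln, Ramp2 0.00555 in Gja4 and 0.319 in Nr2f2, and Ramp3 -0.441 in Apln, 0.367 in Nr2f2 and -0.532 in Plvap-high cells, none called. In healthy mice alone, Adm gave 0.42 and Calcrl -0.168 in Car4, and Ramp2 -0.111 in Apln and 0.0255 in Gja4 cells, none called. In MI mice alone, Ramp3 gave -0.0846 in Apln, and Ramp2 -0.0947 in Car4 and 0.0775 in Nr2f2 cells, none called, and Adm -0.56 (called) in Nr2f2 cells. Adm in Nr2f2 cells was also called with copied cells kept (-0.674), unthinned calls (-0.63), other markers kept (-0.62) and limma-voom (-0.613). Unthinned calls gave Calcrl -0.292 (called) in Apln, Ramp2 0.0967 (called) in Car4, 0.0129 in Gja4 and 0.00662 in Nr2f2, and Ramp3 -0.249 in Plvap-high cells, and copied cells kept gave Ramp2 0.014 in Gja4 cells. Plvap-high at 5 UMIs gave Ramp3 -0.311 in Apln and Calcrl 0.201 in Plvap-high cells, not called. Without each mouse, Adm in Nr2f2 cells ran from -0.8 to -0.433, Ramp3 in Apln cells from -0.537 to -0.327 and Ramp2 in Gja4 cells from -0.0429 to 0.0112. Genes called higher in Nr2f2 cells moved from 509 to 1006 with limma-voom, with 440 lower in the main fit. The counts of this class at 2 UMIs rest on that 1 mouse and are not compared.

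Without thinning, the share of cells rose by 10.4 points for Adm, 14.8 for Calcrl, 14.6 for Ramp2 and 10.2 for Ramp3. For Ramp2 it was -1.15 points in all deposited cells and -0.733 at 2 UMIs. Without each mouse, the shares ran from -0.2 to 1.56 points for Ramp2 and -1.88 to -0.0839 for Ramp3, and the Ramp3 share of Ramp2 and Ramp3 UMIs from -2.45 to -1.48 points.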
